A study of Mus musculus with 3 samples.

Results

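The mitosis genes described here are 54 genes picked by symbol from the 32285 genes counted in each library: the kinases, cyclins and ubiquitin ligases that start and end mitosis, and the proteins of the kinetochore, spindle, cleavage furrow, chromosomes and nuclear envelope, together with Fbxo5. All 54 symbols were found, each with 1 gene identifier, and all 54 passed the filter of a mean of at least 10 CPM (counts scaled to a library total of 1000000) that 7884 genes passed. They were measured by droplet single-cell RNA sequencing of polyadenylated RNA in E14 cells, a mouse embryonic stem cell line of 129/Ola background, kept on gelatin in serum with leukaemia inhibitory factor. All cells were grown for a day after seeding and then received either 10 uM tubercidin, an adenosine analogue, for 3 h or for 6 h, or the same volume of DMSO for 6 h. There was no 3 h DMSO culture, so the 3 h cells differ from their control in time as well as in agent. Each condition is 1 library, so no test was possible, and the 95% intervals below cover counting error only and not the spread between cultures.

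Entry into mitosis is driven by Cdk1 bound to cyclin B. Exit from it needs the anaphase-promoting complex (APC/C), a ubiquitin ligase that the activators Cdc20 and Cdh1 direct to cyclins and securin. Fbxo5 encodes Emi1, an inhibitor of the APC/C that lets cyclins build up in S and G2 phase and is itself destroyed as mitosis begins. Transcription of most mitosis genes peaks in G2 and mitosis, under the MuvB complexes, B-Myb, FoxM1 and NF-Y, which act at CHR elements and CCAAT boxes near the start of the gene. Mouse embryonic stem cells divide fast, with a short G1 phase, and express these genes strongly.

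Cells called in the DMSO, 3 h and 6 h libraries numbered 2031, 2365 and 2926, and held 104892739, 29892000 and 24681924 unique molecular identifiers (UMIs). Any pair of libraries shared 1 cell barcode. The median cell had 48452 UMIs in DMSO, 11877 at 3 h and 8004.5 at 6 h, so all levels are given as CPM of the UMIs summed over the cells of a library. On this scale fewer cells of a kind and less RNA per cell cannot be told apart. Values as UMIs per cell also depend on how deeply a library was sequenced, which was not separated from RNA content. They depend too on the minimum of UMIs for a cell, which was set within each library. It was 11033 in DMSO, 2960.85 at 3 h and 2106.67 at 6 h, so the DMSO minimum lay above the median 6 h cell. All 8 embryonic stem cell markers had UMIs in every library, summing to between 3785 and 5178 CPM. The other marker lists (2-cell-like, primitive endoderm-like, trophoblast-like and fibroblast-like) summed to at most 10.5 CPM in any library, with Sox17, Hand1 and Col1a2 at 0 at 6 h, Col3a1 at 0 at 3 h, Lum at 0 in DMSO and at 6 h, and 3 of the 7 2-cell-like genes in the files at 0 in every library.

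Fbxo5 (ENSMUSG00000019773, chr10:5799160-5805600 on GRCm38, minus strand, 5 exons) stood at 133 CPM in DMSO (13914 UMIs), 27.9 CPM at 3 h (833 UMIs) and 25.04 CPM at 6 h (618 UMIs). With CPM, both tubercidin libraries lay far below DMSO and close to each other. The fold was 4.76 at 3 h and 5.30 at 6 h, or log2 ratios of -2.21 (95% counting interval -2.35 to -2.15) and -2.36 (-2.52 to -2.29). Log2 ratios here are of CPM + 1, while their intervals are for the ratio without that pseudocount. Between 3 h and 6 h the ratio with CPM was -0.15 (-0.31 to -0.00), at the edge of counting error. Other scalings, described below, put it further below 0. They gave -0.37 (median-of-ratios factors), -0.36 (TMM factors) and -0.62 (UMIs per cell). Among the 7884 genes tested, Fbxo5 ranked 4 from the lowest at 3 h and 9 from the lowest at 6 h. It was the lowest of the 54 mitosis genes at both times. Relative to the median gene its log2 ratio was -1.94 at 3 h and -2.24 at 6 h. As UMIs per cell its log2 ratio was -4.10 and -4.71, or -1.94 and -2.18 relative to the median gene on that scale. A cell held on average 6.85 Fbxo5 UMIs in DMSO, 0.352 at 3 h and 0.211 at 6 h. In barcodes too poor in UMIs to be cells, whose content is free RNA, Fbxo5 stood at 92.5, 22.9 and 19.8 CPM, so the free RNA showed the same order of libraries.

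The 54 genes as a list were lower than the median gene at both times. Their median log2 ratio was -0.52 at 3 h and -0.35 at 6 h, against -0.27 and -0.12 over all 7884 genes. Relative to that median 43 of the 54 were lower at 3 h and 44 at 6 h. By a rule of size of at least 1.5-fold, 25 of the 54 were lower at 3 h, where 24.5% of all genes were, and 0 were higher, where 3.61% of all genes were. At 6 h 14 of the 54 were lower, against 16.9% of all genes, and 0 were higher, against 7.06%. At least 2-fold lower were 8 genes at 3 h (5.54% of all genes) and 3 genes at 6 h (4.41%), the latter being Fbxo5, Cdk1 and Aurkb. From 3 h to 6 h the median of the list was 0.14 and that of all genes 0.14, so the list as a whole moved with the median gene. This hides a spread from -0.85 for Cdc20 to 1.14 for Ckap2. Only Cdc20 and Ube2c were at least 1.5-fold lower at 6 h than at 3 h (1.67% of all genes), and 6 genes were higher: Ckap2, Anln, Mki67, Dlgap5, Gtse1 and Rangap1 (8.51% of all genes). The 3 comparisons share libraries and are not independent of each other.

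Gene by gene, 4 courses were distinguished. A gene recovered if it was at least 1.5-fold lower at 3 h, less than 1.5-fold lower at 6 h, and higher at 6 h than at 3 h beyond counting error. This held for 13 of the 54 genes, where 11.1% of all genes did so. It stayed low if it was at least 1.5-fold lower at both times, which held for 12 genes (12.4% of all genes). It was late if it passed that fold at 6 h alone, which held for Cks2 and Ube2c (4.57% of all genes). The other 27 genes passed it at neither time. The fold corresponds to a log2 ratio of -0.5850. Just outside it lay Cenpe (-0.5785), G2e3 (-0.55), Bub1 (-0.54) and Cdc20 (-0.54) at 6 h and Gas2l3 (-0.55) at 3 h, and just inside it Mki67 (-0.63) at 6 h.

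These courses depend on how libraries are scaled, because the median gene itself stood at -0.27 at 3 h. Median-of-ratios size factors moved the median log2 ratio of all genes by 0.23 at 3 h and 0.01 at 6 h, and TMM factors by 0.19 and -0.03. With the former 6 genes recovered (3.01% of all genes; Anln, Bub1, Ckap2, Dlgap5, Hmmr and Top2a), 9 stayed low (7.94%; Aurkb, Cdca2, Cdk1, Cenpf, Fbxo5, Hjurp, Kif20b, Mki67 and Smc4) and 5 were late (8.32%; Cks2 and Ube2c, now with Cenpa, Ckap2l and Cks1b). All 6 and all 9 had the same course with CPM. TMM factors gave 6, 10 and 5, where 3.6%, 9.37% and 8.97% of all genes had these courses. Without any scaling, as UMIs per cell, all 54 genes were at least 1.5-fold lower at both times, as were 99.4% of all genes, so this count says nothing particular about the list. A scaling factor multiplies all levels alike, but with the pseudocount log2 ratios did not all shift by the same amount: by 0.22 to 0.24 at 3 h with median-of-ratios factors, and by -2.03 to -1.72 as UMIs per cell, least for genes of few UMIs. Fbxo5 was the lowest of the 54 at both times under each of the 4 scalings.

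**Figure D1:**
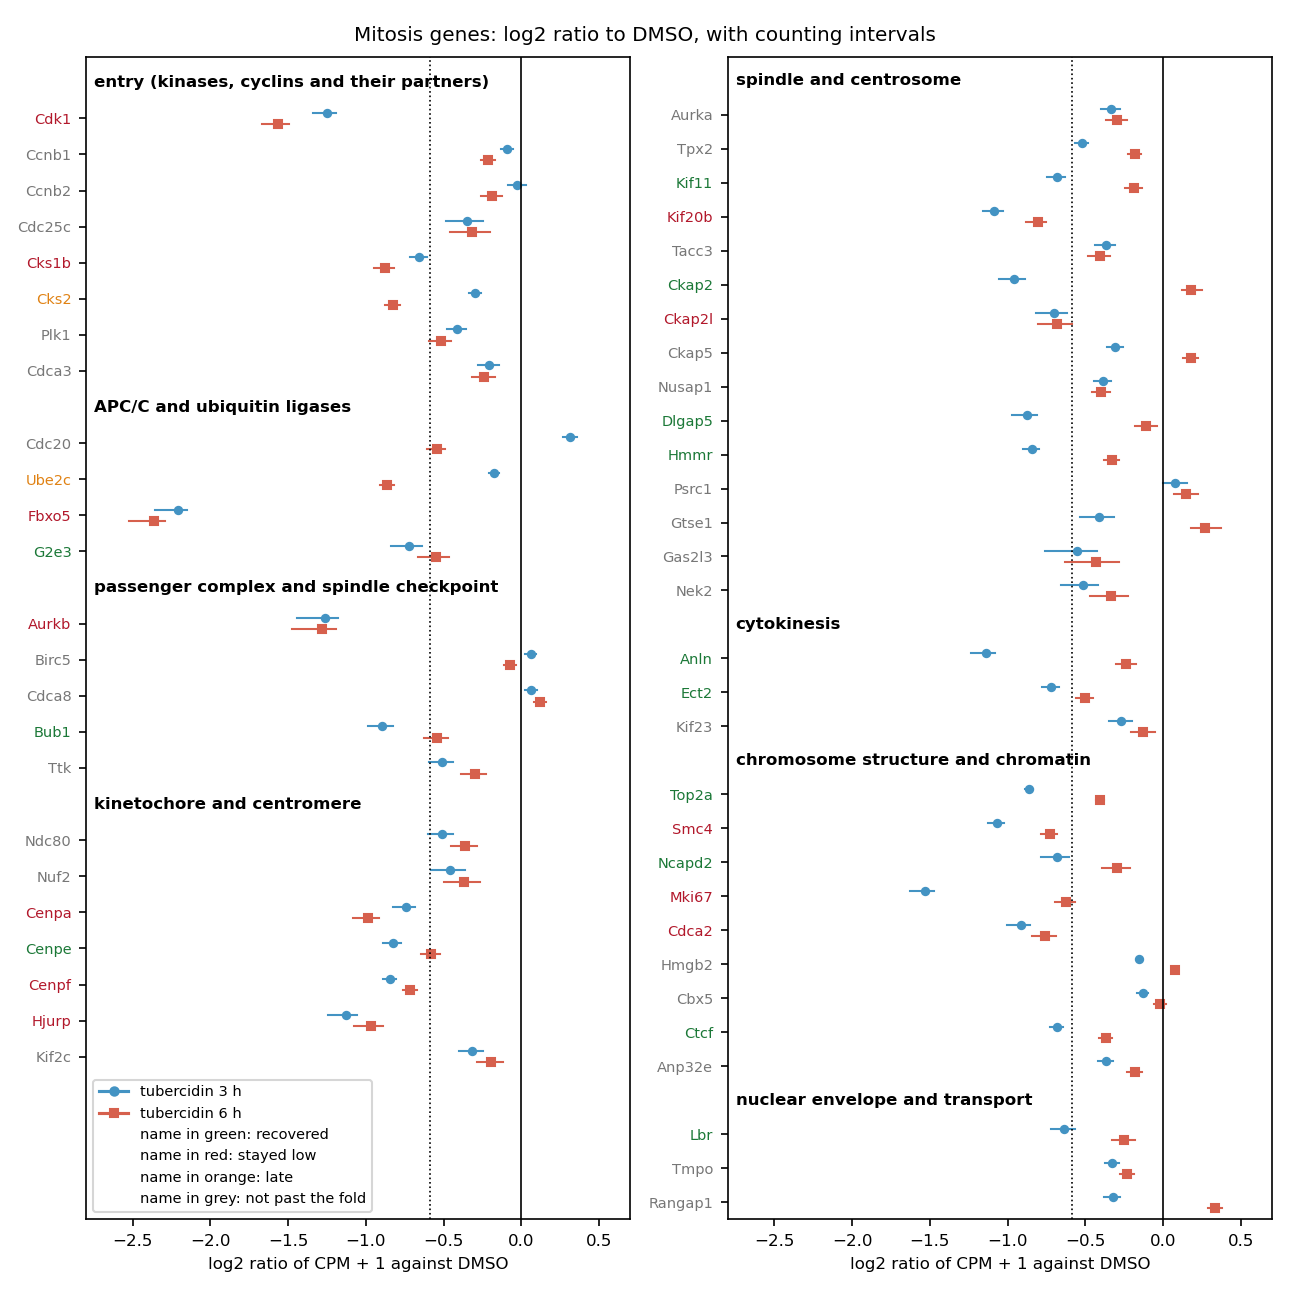
Log2 ratio of CPM + 1 against DMSO for the 54 mitosis genes, grouped by role, at 3 h (blue circles) and 6 h (red squares) of tubercidin; bars are 95% counting intervals of the ratio without the pseudocount, 1 library per condition. The dotted line marks 1.5-fold lower and the colour of a name its course: Fbxo5 lies farthest left at both times, and for Ckap2 and Anln the 6 h point lies well to the right of the 3 h point.

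**Figure D2:**
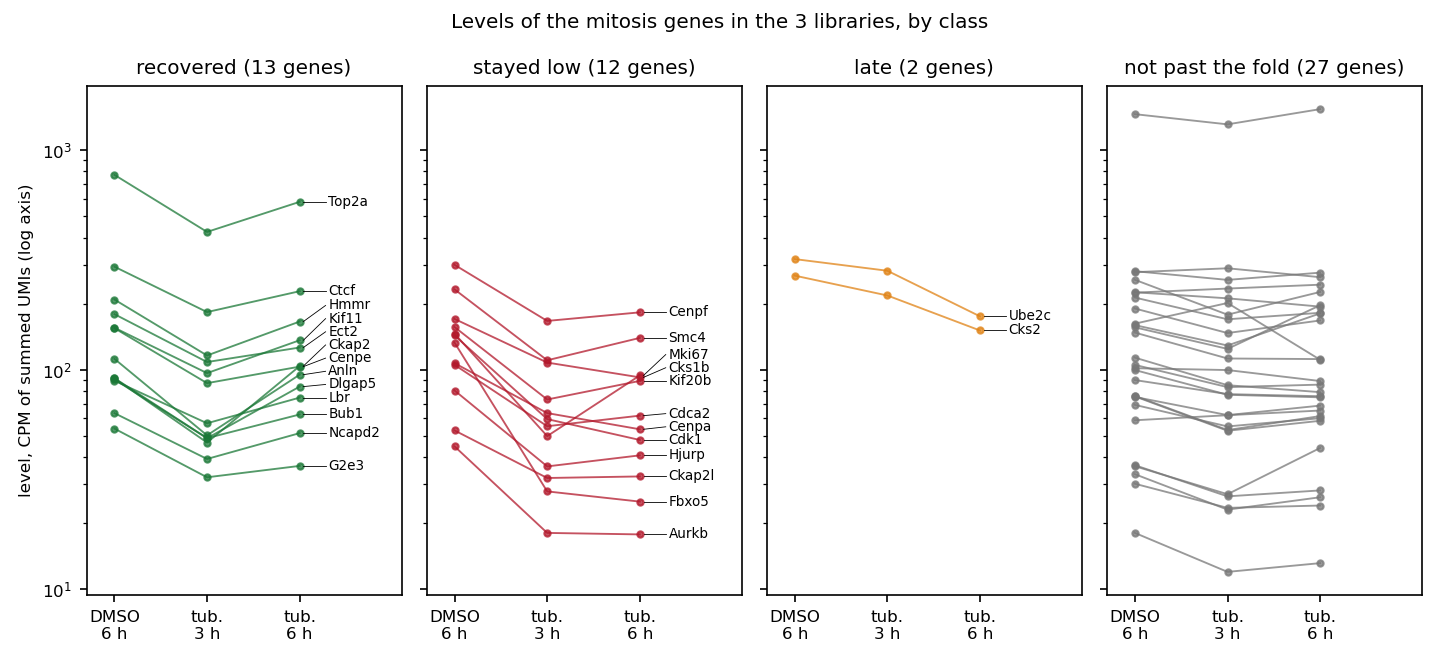
Level of each mitosis gene in the 3 libraries, in CPM of summed UMIs on a log axis, in 4 panels by course; each line is 1 gene and labels name the genes of the 3 panels past the fold. The recovered genes form a V with its lowest point at 3 h, while Ube2c and Cks2 are at their lowest at 6 h. Both shapes follow from the rules that define these courses.

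The genes of mitotic entry went apart from each other. Cdk1 (chr10:69335146-69352938), the catalytic kinase, stood at 143, 59.5 and 47.8 CPM in DMSO, at 3 h and at 6 h. Its log2 ratios of -1.25 (-1.34 to -1.20) and -1.56 (-1.67 to -1.50) made it the lowest gene of the list after Fbxo5 at 6 h, and the 6 h level was below the 3 h level beyond counting error (-0.31, -0.42 to -0.21). Its cyclin partners did not share this. Ccnb1, cyclin B1, stood at 225, 211 and 194 CPM and Ccnb2, cyclin B2, at 102, 99.6 and 88.7 CPM. Their ratios were -0.09 and -0.03 at 3 h, which turn to 0.15 and 0.21 with median-of-ratios factors, and -0.22 and -0.19 at 6 h. Relative to Ccnb2, Cdk1 was thus lower by 1.22 at 3 h and 1.37 at 6 h on the log2 scale.

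The small Cdk-binding proteins Cks1b and Cks2 were both low at 6 h. Cks1b stood at 170, 108 and 92.2 CPM (ratios -0.66 and -0.88) and stayed low, while Cks2 stood at 268, 218 and 151 CPM (ratios -0.30 and -0.83) and was late. How reads shared by near-identical gene copies were counted is not given in the sources used here, which leaves values of close paralogs such as these uncertain. The phosphatase gene Cdc25c, the kinase gene Plk1 and Cdca3, a factor of mitotic entry, passed the fold at neither time, with ratios from -0.41 to -0.21 (3 h) and from -0.52 to -0.24 (6 h). No entry gene was higher at 6 h than at 3 h beyond counting error.

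The genes around the APC/C held both extremes of the list at 3 h, Fbxo5 and Cdc20. Cdc20 (chr4:118432901-118437352), the mitotic activator, stood at 162, 201 and 111 CPM. It was the gene with the highest ratio of the list at 3 h, 0.31 (0.27 to 0.36), and was lower than DMSO at 6 h, -0.54 (-0.61 to -0.49). Ube2c (chr2:164769898-164778822), the ubiquitin-conjugating enzyme of the APC/C, stood at 319, 282 and 175 CPM, or -0.18 at 3 h (0.06 with median-of-ratios factors) and -0.86 at 6 h. Cdc20 and Ube2c had the 2 lowest ratios of 6 h against 3 h in the list, -0.85 (-0.93 to -0.79) and -0.69 (-0.74 to -0.64). G2e3, a ubiquitin ligase of G2 and mitosis, stood at 53.9, 32.3 and 36.4 CPM and recovered by a narrow margin (-0.72 and -0.55). At 3 h, then, the inhibitor Fbxo5 was lower and the activator Cdc20 higher, 2.52 apart on the log2 scale; at 6 h both were lower, 1.82 apart.

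Members of the chromosomal passenger complex differed in the same way as Cdk1 and its cyclins. Aurkb (chr11:69045647-69051664), its kinase, stood at 44.7, 18.03 and 17.8 CPM, or -1.26 (-1.44 to -1.18) and -1.29 (-1.48 to -1.19). Birc5, survivin, stood at 278, 290 and 264 CPM, and Cdca8, borealin, at 224, 234 and 244 CPM. The ratios of Birc5 and Cdca8 were within 0.12 of 0 at both times with CPM, and up to 0.30 above it at 3 h with median-of-ratios factors. Of the checkpoint kinases, Bub1 stood at 91.4, 48.7 and 62.5 CPM and recovered (-0.89 and -0.54), and Ttk passed the fold at neither time (-0.51 and -0.30).

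At the kinetochore, the genes for the centromeric histone and its chaperone stayed low. Cenpa, the histone, stood at 107, 63.4 and 53.5 CPM (-0.75 and -0.99) and Hjurp, which deposits it, at 80.3, 36.2 and 40.7 CPM (-1.13 and -0.96). Cenpf, a large coiled-coil protein of the outer kinetochore, stood at 300.2, 167 and 182 CPM (-0.84 and -0.72) and also stayed low. Cenpe, the kinetochore kinesin, stood at 155, 86.8 and 103 CPM (-0.83 and -0.58) and counted as recovered, although its counting interval at 6 h (-0.64 to -0.52) held the threshold. Ndc80 and Nuf2, which bind microtubule ends, and Kif2c, a microtubule depolymerase, passed the fold at neither time, with ratios from -0.51 to -0.32 (3 h) and from -0.37 to -0.20 (6 h).

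The spindle genes made up the largest group, with 15 members, of which 4 recovered and 2 stayed low, against 11.1% and 12.4% of all genes, and 9 passed the fold at neither time. Ckap2 (chr8:22168160-22185819), a microtubule-stabilising protein, stood at 91.3, 46.5 and 104 CPM. It was 1.96-fold lower at 3 h (log2 ratio -0.96, -1.05 to -0.89) and above DMSO at 6 h (0.18, 0.12 to 0.25), and its ratio of 6 h against 3 h, 1.14 (1.06 to 1.25), ranked 7807 of 7884 genes from the lowest. That ratio stayed above 0 under every scaling tried, at 0.92 with median-of-ratios or TMM factors and 0.53 as UMIs per cell. Its paralog Ckap2l, a spindle protein too, stood at 52.8, 32.1 and 32.6 CPM and stayed low (-0.70 and -0.68).

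Dlgap5, which stabilises kinetochore fibres, stood at 90.3, 48.7 and 83.7 CPM (-0.88 and -0.11). Kif11, the kinesin that pushes spindle poles apart, stood at 155, 96.4 and 136 CPM (-0.68 and -0.19), and Hmmr, a spindle assembly factor, at 209, 116 and 166 CPM (-0.84 and -0.33). These 3 recovered with Ckap2. Kif20b, a kinesin of late mitosis, stood at 156, 73.1 and 88.9 CPM and stayed low (-1.09 and -0.81).

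Among the spindle genes not past the fold, Gtse1, a microtubule-binding regulator of chromosome alignment, stood at 36.3, 27.1 and 44.0 CPM, below DMSO at 3 h (-0.41) and above it at 6 h (0.27). Ckap5, a microtubule polymerase, stood at 160, 129 and 180 CPM, with the same pair of directions (-0.31 and 0.18). Psrc1, a regulator of spindle microtubules, stood at 58.8, 62.0 and 65.1 CPM (0.08 and 0.14). Aurora kinase A (Aurka), its activator Tpx2, and Tacc3, Nusap1, Gas2l3 and Nek2 had ratios from -0.55 to -0.33 (3 h) and from -0.43 to -0.18 (6 h).

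Of the cytokinesis genes, Anln (chr9:22332012-22389188), the furrow scaffold anillin, stood at 112, 50.2 and 94.9 CPM. Its ratio was -1.14 (-1.24 to -1.08) at 3 h and -0.24 (-0.30 to -0.18) at 6 h. Anln recovered with CPM, median-of-ratios and TMM factors, but not per cell. Ect2, which activates RhoA at the furrow, stood at 179, 108 and 126 CPM (-0.72 and -0.50) and recovered. Kif23, the central spindle kinesin, stood at 75.1, 62.1 and 68.6 CPM (-0.27 and -0.13).

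Genes of the chromosomes differed in course. Top2a (chr11:98992943-99024189), the topoisomerase that untangles sister chromatids and the second most abundant gene of the list, stood at 772, 424 and 582 CPM (-0.86 and -0.41) and recovered. Of the condensin genes, Smc4 stood at 232, 110 and 140 CPM (-1.07 and -0.73) and stayed low. Ncapd2 stood at 63.4, 39.2 and 51.4 CPM (-0.68 and -0.30) and recovered. From 3 h to 6 h both rose by similar amounts, 0.34 (0.27 to 0.41) for Smc4 and 0.38 (0.28 to 0.51) for Ncapd2. With median-of-ratios factors Ncapd2 was at -0.44 at 3 h, short of the fold. Mki67 (chr7:135689784-135716361), which coats mitotic chromosomes, stood at 146, 49.8 and 94.1 CPM. At -1.53 (-1.63 to -1.47) it was the lowest at 3 h after Fbxo5, and although its 6 h level was 0.90 above its 3 h level, it was still at -0.63 (-0.69 to -0.57).

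Cdca2, which brings phosphatase to chromosomes at mitotic exit, stood at 105, 55.2 and 61.7 CPM and stayed low (-0.92 and -0.76). Ctcf, the insulator protein, stood at 295, 183 and 228 CPM and recovered (-0.68 and -0.37). Hmgb2 (chr8:57511907-57515999), a DNA-bending protein that is the most abundant gene of the list, stood at 1459, 1311 and 1538 CPM, or -0.15 at 3 h (0.09 with median-of-ratios factors) and 0.08 at 6 h. It held 15.6% of the UMIs of the 54 genes in DMSO, 19.2% at 3 h and 20.3% at 6 h. Cbx5, heterochromatin protein 1 alpha, and Anp32e, a chaperone of histone H2A.Z, passed the fold at neither time (-0.13 and -0.37 at 3 h, -0.02 and -0.18 at 6 h).

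The nuclear envelope genes had the highest median of the role groups at 6 h (-0.23). Lbr, the lamin B receptor, stood at 89.0, 57.0 and 74.6 CPM (-0.64 and -0.25) and recovered, and Tmpo, a lamina-associated protein, stood at 213, 170 and 182 CPM (-0.33 and -0.23). Rangap1, the activator of the Ran GTPase, stood at 156, 124 and 197 CPM, below DMSO at 3 h (-0.32) and at 6 h the highest ratio of the list (0.33, 0.29 to 0.38). Zc3h7b, on the opposite strand of Rangap1, had 1918, 304 and 328 UMIs, and whether the counting used strand is not given in the sources used here.

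The promoters of the list were read from RefSeq's table for GRCm38.p6, which holds 300 bases for each start, from 250 before it to 50 after; 48 of the 54 genes had an entry (not Aurkb, Cdc25c, Cdca2, Dlgap5, Smc4 and Tpx2). Both strands were searched for the CCAAT box (CCAAT), the CHR element (TTTGAA and its variant TTCGAA) and E2F sites (TTTGGCGC, TTTGCCGC, TTTCGCGC or TTTCCCGC); no motif contains another. Shown are Fbxo5 and, of the genes with both a CCAAT box and a CHR element, the lowest at 6 h (Cdk1), the one with the largest ratio of 6 h against 3 h (Ckap2) and the one nearest 0 at 6 h (Hmgb2), each 5′ to 3′ with the 250 bases before the start and the 20 from it. Capitals mark the motifs, and a motif on the other strand appears reversed and complemented, a CCAAT box as ATTGG and a CHR element as TTCAAA.
Fbxo5, chr10:5805446-5805715, minus strand: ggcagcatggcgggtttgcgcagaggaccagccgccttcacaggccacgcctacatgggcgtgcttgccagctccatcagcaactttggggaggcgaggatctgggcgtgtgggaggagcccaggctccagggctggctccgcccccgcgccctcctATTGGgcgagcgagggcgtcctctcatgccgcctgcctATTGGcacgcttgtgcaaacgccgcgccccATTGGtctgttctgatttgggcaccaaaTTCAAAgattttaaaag
Cdk1, chr10:69352893-69353162, minus strand: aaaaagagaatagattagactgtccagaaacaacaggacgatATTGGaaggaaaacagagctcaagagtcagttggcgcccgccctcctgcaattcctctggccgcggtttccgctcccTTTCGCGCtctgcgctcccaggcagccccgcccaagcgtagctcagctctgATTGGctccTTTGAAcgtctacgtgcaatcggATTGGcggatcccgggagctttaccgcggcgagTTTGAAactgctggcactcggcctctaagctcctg
Ckap2, chr8:22185800-22186069, minus strand: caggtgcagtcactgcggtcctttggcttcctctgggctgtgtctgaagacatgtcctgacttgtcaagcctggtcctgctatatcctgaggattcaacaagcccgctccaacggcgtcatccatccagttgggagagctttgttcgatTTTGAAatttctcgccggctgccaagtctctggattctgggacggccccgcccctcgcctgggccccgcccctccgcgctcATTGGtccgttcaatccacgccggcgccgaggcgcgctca
Hmgb2, chr8:57511593-57511862, plus strand: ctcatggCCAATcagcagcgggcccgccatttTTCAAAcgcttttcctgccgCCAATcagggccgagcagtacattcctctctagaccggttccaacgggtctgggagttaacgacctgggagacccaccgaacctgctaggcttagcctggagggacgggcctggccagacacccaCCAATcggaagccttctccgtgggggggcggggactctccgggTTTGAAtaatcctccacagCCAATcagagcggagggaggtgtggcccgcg

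Fbxo5 had 3 CCAAT boxes, which begin 93, 55 and 25 bases before the start, and a CHR element at bases 4 to 9 counted from the start itself. Its start in this table lies inside the gene as annotated by GENCODE M21, whose first base is at 5805600. Cdk1 had 3 CCAAT boxes, 2 CHR elements, the nearer beginning 15 bases before the start, and 1 of the E2F sites searched. Ckap2, which recovered, and Hmgb2, which passed the fold at neither time, had 1 and 4 CCAAT boxes and 1 and 2 CHR elements. Cdk1, Ckap2 and Hmgb2 were picked for holding both motifs and for unlike ratios, so they cannot show how motifs relate to course.

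In the whole list 37 of 48 genes (77.1%) had a CCAAT box, against 44.4% of 6302 tested genes with an entry, and 37 of 48 (77.1%) had a CHR element, against 16.6%. Both occurred in the same window in 30 of 48 genes (62.5%), against 7.27% of tested genes and 8.61% of all 27025 genes of the table. An E2F site of the letters searched was found in 3 genes (6.25%), against 5.52%. By course, a CHR element was found in 9 of 9 genes that stayed low, 10 of 12 that recovered, 1 of 2 late genes and 17 of 25 not past the fold. A CCAAT box was found in 8, 9, 2 and 18 of them. These counts are small, the motifs were not tested against the course, and a match is no evidence of binding in these cells.

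**Figure D3:**
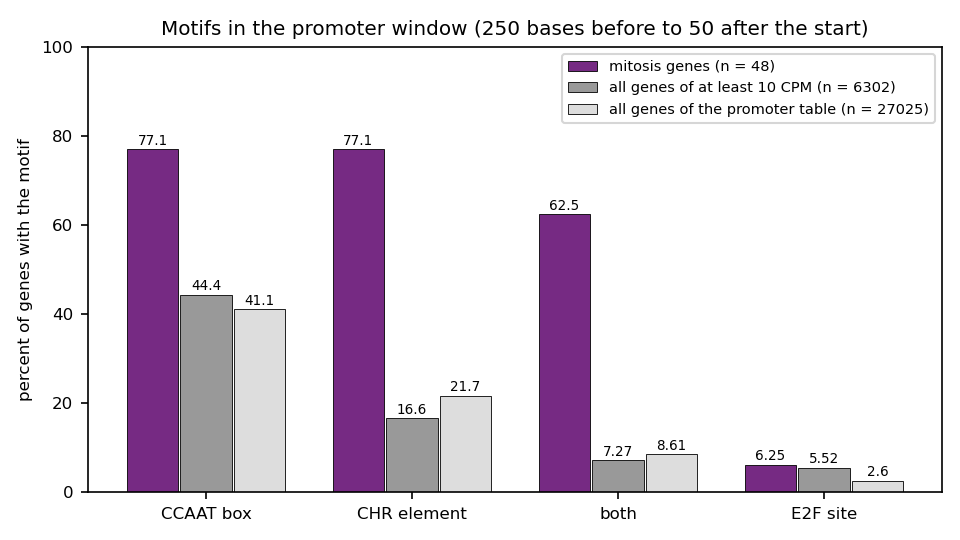
Percent of genes whose RefSeq promoter window holds a CCAAT box, a CHR element, both, or an E2F site, for the 48 mitosis genes with an entry (purple), all tested genes with an entry (dark grey) and all genes of the table (light grey). The CHR element stands at 77.1% in the mitosis genes and 16.6% in tested genes.

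Other genes of the same machinery were read from lists that hold none of the 54, and their counts stand against 24.5% of all genes at least 1.5-fold lower and 3.61% higher at 3 h, and 16.9% and 7.06% at 6 h. The APC/C, the target of Fbxo5, lay near or above DMSO as a list. Of 16 APC/C core subunits, activators and enzymes, 3 were at least 1.5-fold lower and 1 higher at 3 h, and the same numbers at 6 h, with a median of -0.01 at 3 h and 0.20 at 6 h. Cdc26 and Anapc10, small subunits, were lowest at 6 h, at 68.5, 45.0 and 30.7 CPM (-1.13) and 80.5, 47.3 and 37.0 CPM (-1.10). Anapc15, at 70.8, 84.2 and 98.7 CPM (0.48), and Fzr1, which encodes Cdh1, at 52.0, 78.6 and 85.0 CPM (0.70), were highest. As UMIs per cell Fzr1 was lower too (-1.39 at 3 h, -1.83 at 6 h).

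Of 13 regulators of mitotic transcription, 2 were lower at 3 h, and 1 lower and 2 higher at 6 h. E2f4, the E2F factor of the DREAM complex, stood at 103, 70.0 and 56.4 CPM (-0.86 at 6 h), and Nfya, the DNA-binding subunit of NF-Y, at 14.2, 7.83 and 9.81 CPM (-0.49). Mybl2, which encodes B-Myb, was higher at 6 h, at 280, 361 and 471 CPM (0.75). Rbl2, which encodes the pocket protein p130, stood at 19.3, 18.9 and 47.5 CPM, 1.26 above DMSO at 6 h. Both were lower per cell at 6 h, with ratios of -1.85 and -1.21.

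Of 11 tested regulators of mitotic entry (12 listed), 2 were lower at 3 h and 1 at 6 h. Bora, a cofactor of Aurora A, stood at 68.7, 34.4 and 38.7 CPM (-0.81), and Ccna2, cyclin A2, at 99.9, 83.3 and 66.9 CPM (-0.57). Arpp19, at 319, 316 and 431 CPM (0.43), and Ccnf, cyclin F, at 106, 98.7 and 149 CPM (0.49), were highest at 6 h. Of 21 checkpoint and kinetochore genes, 7 were lower and 1 higher at 3 h, and 4 and 1 at 6 h. The shugoshins Sgo1 and Sgo2a, which protect centromeric cohesion, stood at 85.8, 34.4 and 34.3 CPM (-1.30) and at 88.4, 31.0 and 43.4 CPM (-1.01). Incenp, at 158, 138 and 197 CPM (0.31), and Pmf1, at 73.0, 121 and 139 CPM (0.92, or -1.64 per cell), were highest at 6 h.

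Of 17 condensin and cohesin genes, 7 were lower at 3 h and 3 at 6 h, with 0 higher. Ncapg (80.6, 43.1 and 48.6 CPM, -0.72) and the cohesin acetyltransferase gene Esco2 (225, 107 and 141 CPM, -0.67) were lowest at 6 h, and Rad21 (0.28) and Ncaph2 (0.33) highest. Of 16 mitotic kinesin and cytokinesis genes, 5 were lower and 1 higher at 3 h, and 3 and 3 at 6 h. Cep55, which acts in abscission, stood at 102, 45.6 and 40.6 CPM (-1.32), and Haspin, the histone H3 kinase, at 24.4, 10.4 and 9.72 CPM (-1.24). Kifc1, a minus-end kinesin, stood at 54.8, 86.8 and 114 CPM (1.04), and Kif18b, a plus-end kinesin, at 31.3, 34.9 and 72.1 CPM (1.18), though per cell both were lower at 6 h (-1.51 and -1.34).

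S phase genes gave a nearby list for comparison. Of 44 such genes, 14 were lower and 0 higher at 3 h (24.5% and 3.61% of all genes), and 14 and 1 at 6 h (16.9% and 7.06%). Their median was -0.39 at 3 h and -0.29 at 6 h, between the mitosis genes and all genes at both times. Casp8ap2 (122, 51.6 and 54.1 CPM, -1.16) and Ccne2 (21.8, 9.07 and 10.8 CPM, -0.95) were lowest at 6 h, and Uhrf1 (0.52) and Mcm7 (405, 499 and 706 CPM, 0.80, or -1.81 per cell) highest. Fbxo5, at -2.36, lay below every S phase gene, although it acts from S phase on.

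Within cells, the mitosis genes were compared after drawing 4000 UMIs from each cell, which left out 0 DMSO cells, 122 at 3 h and 284 at 6 h with fewer. The median cell then had 35 UMIs of the 54 genes in DMSO, 26 at 3 h and 30 at 6 h. The cells between the 10th and 90th percentile had 25 to 49, 17 to 38 and 20 to 40. At 3 h 62.2% of cells lay below the lower quartile of DMSO cells and 4.46% above the upper quartile, and at 6 h 43.8% and 4.54%. In DMSO itself these shares were 21.6% and 22.9%, because many cells sit at the quartile values. Thinned counts are shares of a fixed total, as CPM are, and the higher median at 6 h than at 3 h holds on that scale. The median ratio of the list for 6 h against 3 h was 0.14 with CPM and -0.078 with median-of-ratios factors, each within 0.0033 of that over all genes. The variance over the mean, near 1 for counting noise alone, was 2.54 in DMSO, 2.68 at 3 h and 1.95 at 6 h. Without this thinning the 54 genes had 485, 86.2 and 64.0 UMIs per cell.

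**Figure D4:**
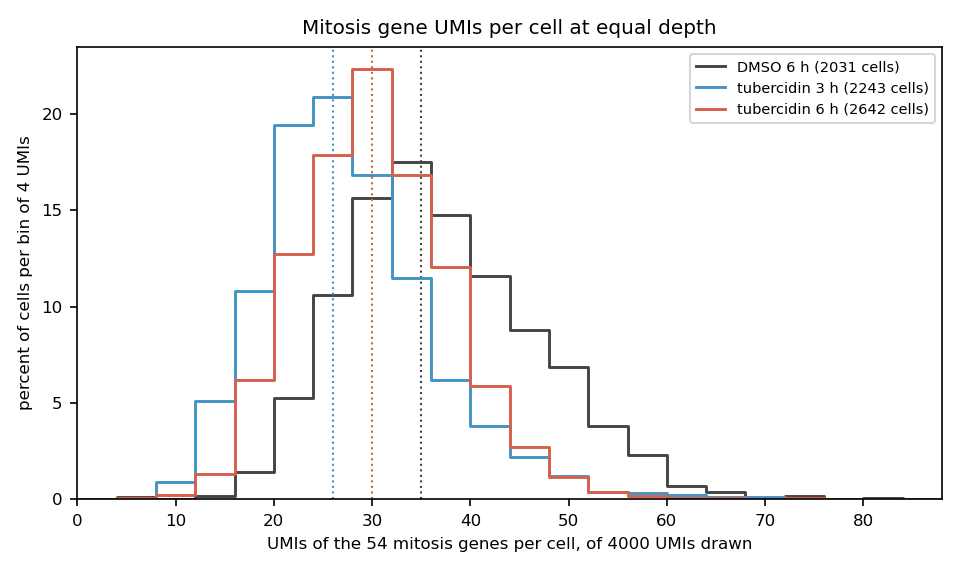
Distribution over cells of the summed UMIs of the 54 mitosis genes after drawing 4000 UMIs from each cell, as percent of cells per bin of 4 UMIs; dotted lines are the medians of 35 (DMSO), 26 (3 h) and 30 (6 h). Few cells of either tubercidin library reach the upper range of DMSO.

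To describe genes at several levels of mitosis RNA, the cells of each library were divided into 3 equal ranks (terciles) by the summed thinned UMIs of the other 53 genes. A tercile is a range of a score and not a phase or a cell type, and as it is cut within each library, fewer cells rich in mitosis RNA and less of it in every cell cannot be told apart. Within the list, the median gene was 1.56-fold higher in the top than in the bottom tercile of DMSO cells. It was 1.56-fold higher at 3 h and 1.39-fold at 6 h. The gap was at least 1.5-fold for 29 genes in DMSO, 30 at 3 h and 19 at 6 h. Genes outside the list were not read by tercile, so no share over all genes stands beside these values. Whether such gaps are particular to mitosis genes was not tested. Gas2l3 had the widest gap in DMSO (2.47-fold), Mki67 at 3 h (2.88-fold) and Aurka at 6 h (1.96-fold).

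Fbxo5 was low in each tercile. From bottom to top it stood at 1.12, 1.23 and 1.54 UMIs per 10000 in DMSO, at 0.308, 0.284 and 0.305 at 3 h, and at 0.204, 0.224 and 0.273 at 6 h. At 3 h its level was about the same in all terciles, the flattest of the 54 genes (top over bottom 0.99). This rests on a mean of 0.12 thinned UMIs per cell, and no interval was made. Top over bottom was 1.376 in DMSO and 1.335 at 6 h. Log2 ratios to DMSO were between -2.45 and -1.83 in the 6 comparisons, and between -2.66 and -1.82 when the random draw was repeated. Cdk1 at 3 h stood at 0.461, 0.592 and 0.720 UMIs per 10000 from bottom to top. Its ratios to the same tercile of DMSO were -1.18, -1.08 and -1.23. Over all 54 genes the median ratio was -0.54, -0.56 and -0.46 in the 3 terciles at 3 h, and -0.36, -0.28 and -0.42 at 6 h.

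The change from 3 h to 6 h went with the size of the gene by each of 3 measures, which were not separated from each other. Over the 54 genes, Spearman's rho between the length of the principal transcript and the log2 ratio of 6 h against 3 h was 0.62, and over all 7884 genes it was 0.36; with the ratio at 3 h against DMSO it was -0.49 and -0.26. For 6 h against 3 h, rho was 0.64 for the number of exons and 0.58 for the length of the gene, and 0.35 and 0.40 over all genes. Genes share libraries and are not independent, so no p-value is given. In the 18 mitosis genes of shortest transcripts (692 to 2489 bases) the median ratio of 6 h against 3 h was -0.11 and 6 were higher at 6 h. In the middle 18 it was 0.20 with 16 higher, and in the 18 longest (3892 to 11130 bases) 0.31 with 17 higher. These counts are with CPM, where 39 of the 54 genes and 67.6% of all genes were higher at 6 h. With median-of-ratios factors 19 of the 54 and 40.1% of all genes were. Both late genes lay in the shortest group, at 692 bases for Cks2 and 967 for Ube2c, and 0, 5 and 8 of the recovered genes in the short, middle and long groups. The same order of recovered and late genes held over all 7884 genes, which include the list. There the median transcript was 2953 bases, against 4278 for recovered, 3026.5 for stayed-low and 2054 for late genes. Within the list, recovered genes and those that stayed low had nearly the same median, 4086 and 4078.5 bases.

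The genes that stayed low lay in all 3 groups (4, 2 and 6), among them Fbxo5 at 1940 bases, Cks1b at 849 and Cenpf at 11130. Ckap2, with the largest ratio of 6 h against 3 h, had a transcript of 2593 bases. With CPM, Cdk1, at 4375 bases, was the only one of the 18 longest that was lower at 6 h than at 3 h. With median-of-ratios factors others of the longest were lower too, among them Cenpf (-0.10) and Cbx5 (-0.12). At 6 h against DMSO rho was -0.05 over the list.

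**Figure D5:**
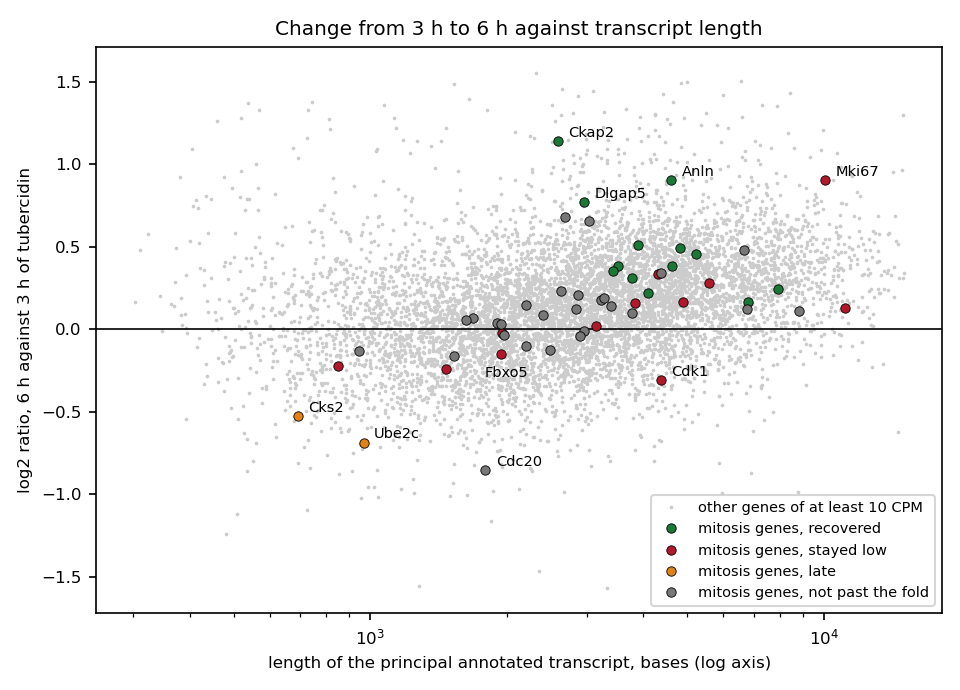
Log2 ratio of 6 h against 3 h (vertical) by length of the principal transcript in bases (horizontal, log axis) for the 54 mitosis genes coloured by course and for other tested genes in grey, of which those outside the drawn range are left out. With CPM, as drawn, short genes such as Cks2, Ube2c and Cdc20 lie below 0 and most long ones above it.

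The free RNA had fewer mitosis UMIs than the cells in every library. The 54 genes summed to 9382, 6819 and 7592 CPM in cells and to 7021, 5199 and 5653 CPM in the barcodes of free RNA, a ratio between 0.745 and 0.763. Subtracting it at 10% of UMIs left Fbxo5 at -2.21 and -2.37.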

How the data were processed

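The authors deposited raw counts of UMIs for every gene in every barcode, made with Cell Ranger 7.1.0 on mm10, per the submitters' processing notes, without a cell filter. The annotation, and whether introns or strand were used in counting, are not given in the sources used here. A barcode was called a cell if its UMIs reached 1/10 of the 99th percentile over the 3000 richest barcodes of the library, with 500 or more genes and no more than 20% mitochondrial UMIs. Doublets were kept. Barcodes ranked 5001 to 15000 by UMIs stood for free RNA. For a gene with 0 UMIs, the limit of 3 counts came to 0.0286 (DMSO), 0.100 (3 h) and 0.122 (6 h) CPM.

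Counts were summed over cells and scaled to CPM; log2 ratios used a pseudocount of 1 CPM. Level intervals are exact Poisson and ratio intervals exact conditional binomial, at 95%. With 1 library per condition no test was run. The calculation of ratios, intervals and courses was tried on simulated counts with known ratios. These counts held counting error alone, and changed genes were set well past the fold. They therefore cannot show the spread between cultures or how genes near the fold are placed. The genes and lists were chosen with earlier results of these data known. Named in full are Fbxo5, the extremes of each role group, genes past the fold, and the 2 lowest and 2 highest genes of each other list at 6 h. Alternatives covered the cell minimum, the mitochondrial limit, cells of many UMIs, scaling, free RNA, equal weight per cell, the pseudocount, the fold, the level filter and the thinning. Transcripts and positions came from GENCODE M21 (GRCm38, the assembly that mm10 names), which held 32235 of the 32285 identifiers; of a gene's transcripts the principal one by APPRIS was used. Python 3.11.15, numpy 2.4.6, scipy 1.17.1, matplotlib 3.10.9 and edgeR 4.0.16 (TMM factors) in R 4.3.3 were used.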

Additional observations from a re-analysis of the deposited data

Results flagged for a closer look

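With CPM, 7 of the 54 genes lay on opposite sides of DMSO at 3 h and 6 h. Each did so beyond counting error, which is why they are listed. With 1 library per condition the difference between the times was not tested. Cdc20 was higher than DMSO at 3 h, at 0.31, and lower at 6 h, at -0.54. Birc5 went the same way by little, 0.059 and -0.075. The reverse held for Ckap2 (-0.96 and 0.18), Gtse1 (-0.41 and 0.27), Rangap1 (-0.32 and 0.33), Ckap5 (-0.31 and 0.18) and Hmgb2 (-0.15 and 0.076). With median-of-ratios or TMM factors Hmgb2 was above DMSO at 3 h too (0.09 and 0.04), while the signs of the other 6 did not change. As UMIs per cell all 7 were below DMSO at both times. The set itself depends on scaling. With median-of-ratios factors other genes had opposite signs at 3 h and 6 h. Among them were Ccnb1 (0.15 and -0.20), Ccnb2 (0.21 and -0.18) and Ube2c (0.06 and -0.85).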

How the results depend on the processing

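Scaling was the choice that mattered most. With median-of-ratios factors the median log2 ratio of the 54 genes was -0.29 at 3 h, and -0.078 for 6 h against 3 h, the reverse of the sign with CPM; 16 genes were at least 1.5-fold lower at 3 h (11.4% of all genes), 3 were higher at 6 h than at 3 h (3.06%), 6 recovered (3.01%) and 5 were late (8.32%). TMM factors gave -0.33, -0.075 (also reversed), 16 (13.6%), 3 (3.13%), 6 (3.6%) and 5 (8.97%). As UMIs per cell the medians were -2.46 at 3 h, -2.82 at 6 h and -0.39 for 6 h against 3 h (reversed); 54 genes were lower at 3 h and 54 at 6 h (99.5% and 99.6% of all genes), 11 were lower (22.2%) and 0 higher (0.647%) at 6 h than at 3 h, and 0 recovered, 54 stayed low (99.4%) and 0 were late. Per cell the sign also reversed for Fzr1 (-1.39 at 3 h, -1.83 at 6 h), Kifc1 (-1.33, -1.51) and Pmf1 (-1.28, -1.64), and at 6 h for Kif18b (-1.34), Mcm7 (-1.81), Mybl2 (-1.85) and Rbl2 (-1.21). The factors multiply all levels alike, and the pseudocount makes the shift smaller for genes of few UMIs. With equal weight for each cell 8 genes recovered (7.37%). At a fold of 2, 8 genes were lower at 3 h (5.54%) and 3 at 6 h (4.41%). At 6 h against 3 h, 0 were lower (0.165%) and 1 higher (1.64%). At this fold 5 recovered (2.63%), 3 stayed low (2.51%) and 0 were late (1.90%), a change by construction. Single genes changed course with the fold too. The 5 that recovered were Anln, Hjurp, Kif20b, Mki67 and Smc4. Of these only Anln recovered at 1.5-fold, where Hjurp, Kif20b, Mki67 and Smc4 stayed low. Thinned to 2000 UMIs, the median of the top tercile of cells was -0.35 at 3 h and -0.30 at 6 h; the cause was not tested. Of the 186 alternative values of these summaries, 154 kept their sign and moved by at most 1.5 times (counts) or less than 0.1 (medians). Some of these could not move: without the level filter the same 54 genes are read, and the fold does not enter a median. Over the 6 tercile comparisons Fbxo5 ranged from -2.45 to -1.83, from -2.66 to -1.82 in another draw, and from -2.65 to -1.98 thinned to 2000 UMIs.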
